A study of Mus musculus with 8 samples.

Results

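The non-infarcted (remote) zone of the left ventricle after myocardial infarction (MI) was set against left ventricular tissue in WT mice, gene by gene. The comparison used 2 of the 8 libraries of the series, the WT remote zone and the WT left ventricle, and covered 12999 of 16994 genes, those averaging 1 CPM or more over the 8 libraries (CPM are counts put on 1 scale across libraries, here with TMM factors). For the remote zone, male WT mice had their left anterior descending coronary artery tied off for good at 16 weeks of age. The methods of the study do not state how long after ligation the tissue for sequencing was taken. The left ventricle library served as the reference tissue, and whether those hearts had been sham operated was not given in the sources used here. The other libraries used here were the WT border and infarct zones and the same 4 regions of mice with whole-body *Tigar* knockout (TKO). RNA of 3 mice was pooled for the infarct zone, and the number of mice behind each of the other libraries was not given. Each group had 1 library, so the ratios below carry no replicate error and no p-value. Their 95% intervals are exact Clopper-Pearson intervals for counting error only, and because the reads carry no molecular identifiers they do not each stand for 1 molecule.

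After an infarct, the surviving muscle carries a higher wall stress. Ventricular cardiomyocytes under such load are known to re-express fetal genes (atrial and B-type natriuretic peptide, β-myosin heavy chain, and skeletal α-actin) and to use less fatty acid as fuel, whereas fibroblasts between them lay down collagen and other matrix. A library of whole tissue adds the RNA of all its cells, so that fewer cells of a type and less RNA per cell cannot be told apart.

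In the remote zone, 444 genes were at least 2-fold higher than in the left ventricle (3.42% of the genes tested) and 272 were at least 2-fold lower (2.09%), counted after a prior count of 2. At a limit of 1.5-fold, 1153 genes were higher (8.87%) and 703 lower (5.41%), and the median ratio of all genes was 1.01. These shares are the background for each list below. The library totals were 33748466 counts (remote zone) and 31571170 counts (left ventricle), within a range of 27429240 to 33799249 over the 8 libraries, and 3 counts corresponded to 0.0986 and 0.109 CPM. *Tigar*, the gene disrupted in TKO, had 1965 counts in WT left ventricle and 1997 in the WT remote zone, against 51 and 87 in the TKO libraries. Both WT libraries had the markers of heart muscle. The 8 cardiomyocyte markers summed to 35382 CPM in the left ventricle and 27325 CPM in the remote zone, with a median ratio of 0.757. Endothelial markers (14 genes, median ratio 0.961), red blood cell markers (7 genes, 1.13), and the share of counts from the 13 mitochondrial DNA–encoded genes (37.6% in the left ventricle and 39.3% in the remote zone) were closer to even. Markers of several other tissues differed between the libraries. They are given below beside the genes they move with.

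**Figure D1:**
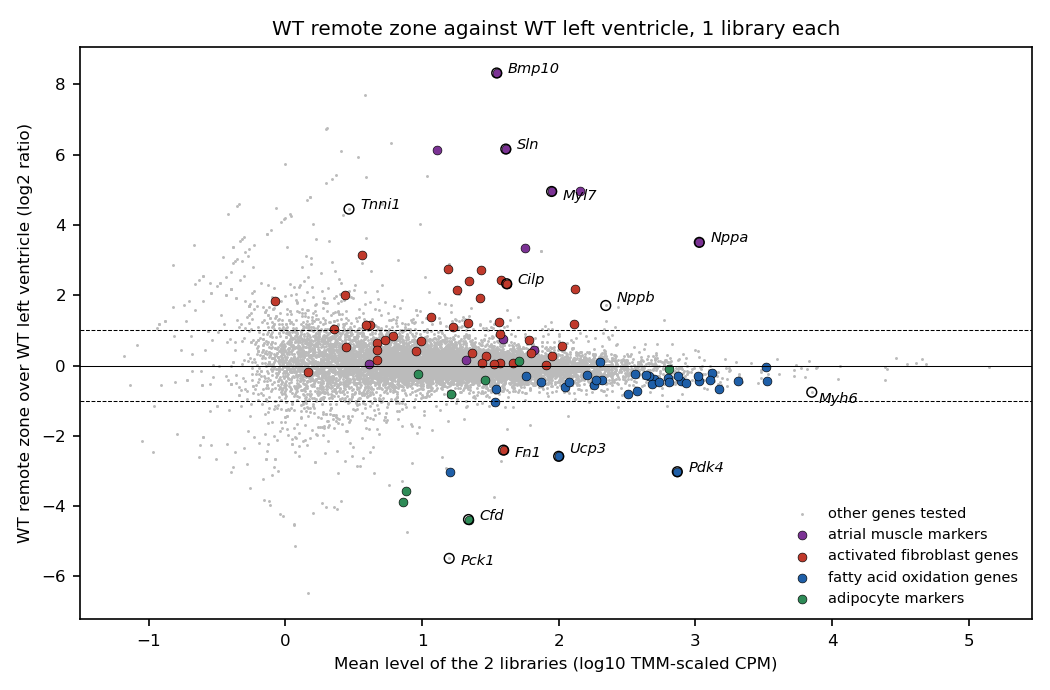
Each point is 1 gene, plotted by its mean level in the WT remote zone and WT left ventricle libraries (x axis, log10 of TMM-scaled CPM) and its remote zone over left ventricle ratio (y axis, log2), with dashed lines at 2-fold. Atrial muscle markers such as *Bmp10* (ratio 320) and *Sln* (71.5) lie at the top, most activated fibroblast genes lie above 0, most fatty acid oxidation genes lie below 0, and *Cfd* (0.0480) and *Pck1* (0.0223) lie near the bottom.

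The fetal and wall stress genes were read first, and the promoters of the natriuretic peptide genes, skeletal α-actin, and *Ankrd1* are shown because they are, after *Tnni1*, the members with the highest ratios. The sequences are RefSeq promoters of build GRCm38.p6, from 250 bases before to 50 bases after the start of the gene, printed 5′ to 3′ on the gene's strand. Capitals mark matches to the CArG box, the site of serum response factor, and to the MCAT core CATTCC on either strand (GGAATG on the other), the site of TEAD factors. The motifs were chosen after the values were seen.

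*Nppa*, at chr4:148000472-148000771 (+ strand), with no match, and the other 3 promoters, *Nppb* at chr4:147985650-147985949 (+), *Acta1* at chr8:123894726-123895025 (-), and *Ankrd1* at chr19:36119795-36120094 (-), read as follows.
Nppa: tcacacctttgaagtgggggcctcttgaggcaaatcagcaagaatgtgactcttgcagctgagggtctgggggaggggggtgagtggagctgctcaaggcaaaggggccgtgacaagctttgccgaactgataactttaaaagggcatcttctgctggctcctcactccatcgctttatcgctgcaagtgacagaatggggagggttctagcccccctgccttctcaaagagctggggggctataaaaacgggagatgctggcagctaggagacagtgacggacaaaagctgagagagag
Nppb: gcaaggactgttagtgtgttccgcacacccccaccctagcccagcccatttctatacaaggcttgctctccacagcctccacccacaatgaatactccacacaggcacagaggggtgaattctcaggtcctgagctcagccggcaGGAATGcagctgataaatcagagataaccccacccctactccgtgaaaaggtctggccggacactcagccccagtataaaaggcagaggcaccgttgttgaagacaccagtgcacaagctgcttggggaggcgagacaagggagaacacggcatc
Acta1: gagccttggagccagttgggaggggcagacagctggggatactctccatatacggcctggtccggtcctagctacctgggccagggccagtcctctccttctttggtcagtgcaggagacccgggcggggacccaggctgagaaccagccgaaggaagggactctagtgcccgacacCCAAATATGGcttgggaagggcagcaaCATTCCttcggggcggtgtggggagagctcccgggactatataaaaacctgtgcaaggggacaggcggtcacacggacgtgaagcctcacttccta
Ankrd1: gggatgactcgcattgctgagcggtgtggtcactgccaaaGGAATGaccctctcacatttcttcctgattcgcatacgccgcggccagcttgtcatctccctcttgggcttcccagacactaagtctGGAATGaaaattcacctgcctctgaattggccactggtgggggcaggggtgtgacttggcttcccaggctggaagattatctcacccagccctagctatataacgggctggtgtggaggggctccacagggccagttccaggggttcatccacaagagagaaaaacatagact

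The MCAT core was in 9 of the 30 promoters of the wall stress list (30.0%) and in 14.7% of 32851 RefSeq promoters, and the CArG box was in 3 of 30 (10%) and in 1.63%. A match is a description of these letters and not a site in use. The lack of a match, as for *Nppa*, does not show that a site for either factor is absent.

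*Nppa*, which encodes atrial natriuretic peptide (ENSMUSG00000041616, chromosome 4, 148000722 to 148002079), had 4736 counts in WT left ventricle, 59713 in the remote zone, 51584 at the border, and 126364 in the infarct. The remote zone over left ventricle ratio was 11.4 (95% interval, 11 to 11.7). In the TKO libraries the counts were 7244, 14718, 13881, and 74576 in the same order, with a remote zone ratio of 1.75, and the WT remote zone over TKO left ventricle gave 7.02. Thus the WT left ventricle was the lowest of the 8 libraries, and the TKO remote zone stood much closer to its left ventricle than the WT remote zone did.

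*Nppb* (B-type natriuretic peptide, chromosome 4, 147985788 to 147987205) had 2834 counts in WT left ventricle and 10289 in the WT remote zone, a ratio of 3.27 (3.14 to 3.41). Its counts in the WT border and infarct zones were 15855 and 14029. In TKO it had 10300 counts in the left ventricle and 7142 in the remote zone, a ratio of 0.596 (0.579 to 0.615). The WT left ventricle was again the lowest library, and the TKO left ventricle was as high as the WT remote zone: WT remote zone over TKO left ventricle gave 0.850, which reversed the direction.

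The same held for *Acta1* (skeletal α-actin, chromosome 8, 123891769 to 123894751), with 3577 counts in WT left ventricle, 12593 in the WT remote zone, 12166 in the TKO left ventricle, and 7961 in the TKO remote zone. Its ratio was 3.17 in WT (3.05 to 3.29) and 0.563 in TKO, and it was 0.881 with the TKO left ventricle as the reference. *Gja1*, which encodes connexin 43, the main ventricular gap junction protein, had 3969, 8322, 10929, and 6988 counts in the same order. Its ratios also went in opposite directions, at 1.89 (1.82 to 1.96) in WT and 0.550 in TKO. In scaled level, however, its WT infarct zone (135 CPM) lay below the WT left ventricle (145 CPM). The direction of *Nppb*, *Acta1*, and *Gja1* therefore rested on the WT left ventricle library. Over all genes, the WT remote zone against the TKO left ventricle gave 700 genes at least 2-fold higher (5.39%) and 250 lower (1.92%), and 1507 at least 1.5-fold higher (11.6%) and 713 lower (5.49%).

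*Myh7* (β-myosin heavy chain) did not depend on that library. It had 9316 counts in WT left ventricle and 25532 in the WT remote zone, a ratio of 2.47 (2.41 to 2.53), and it was 2.10 with the TKO left ventricle (10336 counts) as the reference. *Myh7* was still higher in the WT border zone, with 64127 counts, and the TKO remote zone had 13083 counts, a ratio of 1.09. *Ankrd1*, a titin-associated protein induced by stretch, went from 755 to 2202 counts in WT, a ratio of 2.63 (2.42 to 2.86), and had 1527 and 1805 counts in TKO, a ratio of 1.02. Against the TKO left ventricle the WT ratio of *Ankrd1* was 1.23 (1.15 to 1.31), below 1.5-fold. *Tnni1*, the slow skeletal and fetal troponin I, had 7 counts in WT left ventricle, 170 in the remote zone, 243 at the border, and 223 in the infarct, a remote zone ratio of 21.9 (10.4 to 55.2), or 9.65 against the TKO left ventricle. In TKO it had 15, 13, 2, and 158 counts, so that the infarct zone alone stood above the others.

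These genes did not carry the whole list. Of 25 fetal and wall stress genes measured, 7 were at least 1.5-fold higher and 2 lower in the remote zone, and the median ratio was 1.02, beside 1.01 for all genes. In the TKO pair, 3 were higher (background 8.26%) and 3 lower (4.42%), with a median of 1.02.

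Markers of atrial muscle moved with *Nppa*. Bone morphogenetic protein 10, an atrial ligand encoded by *Bmp10*, had 6 counts in WT left ventricle and 2134 in the remote zone, a ratio of 320 (147 to 874), against 26 and 34 in the border and infarct zones. *Sln* (sarcolipin, the regulator of the calcium pump in atrial muscle) had 31 and 2461 counts, a ratio of 71.5, and *Mybphl*, a myosin-binding protein of the atria, had 10 and 772, a ratio of 69.5. The atrial myosin light chains *Myl4* and *Myl7* had ratios of 31.2 and 31.0. *Dkk3*, named after its values were seen, was 10.2-fold higher, but it was also high in the WT infarct zone (11619 counts against 3135 in the remote zone), as was *Nppa*.

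Of the 11 atrial markers measured, 8 were at least 1.5-fold higher in the WT remote zone, with a median ratio of 11.4, and 7 of the same 8 were higher in the TKO pair, where the median was 3.45. *Bmp10* had 6 and 305 counts in TKO, *Sln* 49 and 735, and *Myl7* 152 and 2031. The summed level of the list was 308 CPM in the WT left ventricle and 2844 CPM in the remote zone, of which *Nppa*, itself a member, made up 173 and 1962 CPM. Among members at the low end, *Tbx5* (1.11, 0.990 to 1.25) and *Nr2f1* (1.02, 0.786 to 1.33) did not differ detectably at this depth. The methods of the study describe removal of the atria for hearts collected whole, and do not state it for the tissue taken after ligation.

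*Nppa* and the atrial light chain did not run in parallel over the regions. For each *Myl7* count there were 11.4 *Nppa* counts in the WT remote zone, 31.2 in the left ventricle, 105 in the border zone, and 185 in the infarct zone. In TKO the values were 7.25, 47.7, 51.2, and 1695. The remote zone had the lowest *Nppa* per *Myl7* in either genotype, and the WT border zone reached a level of *Nppa* near that of the remote zone with 491 *Myl7* counts against 5227. For *Nppb* the values per *Myl7* count were 1.97 in the WT remote zone, 18.6 in the left ventricle, and 32.3 in the border zone. How much of the *Nppa* difference came with atrial muscle was not tested.

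**Figure D2:**
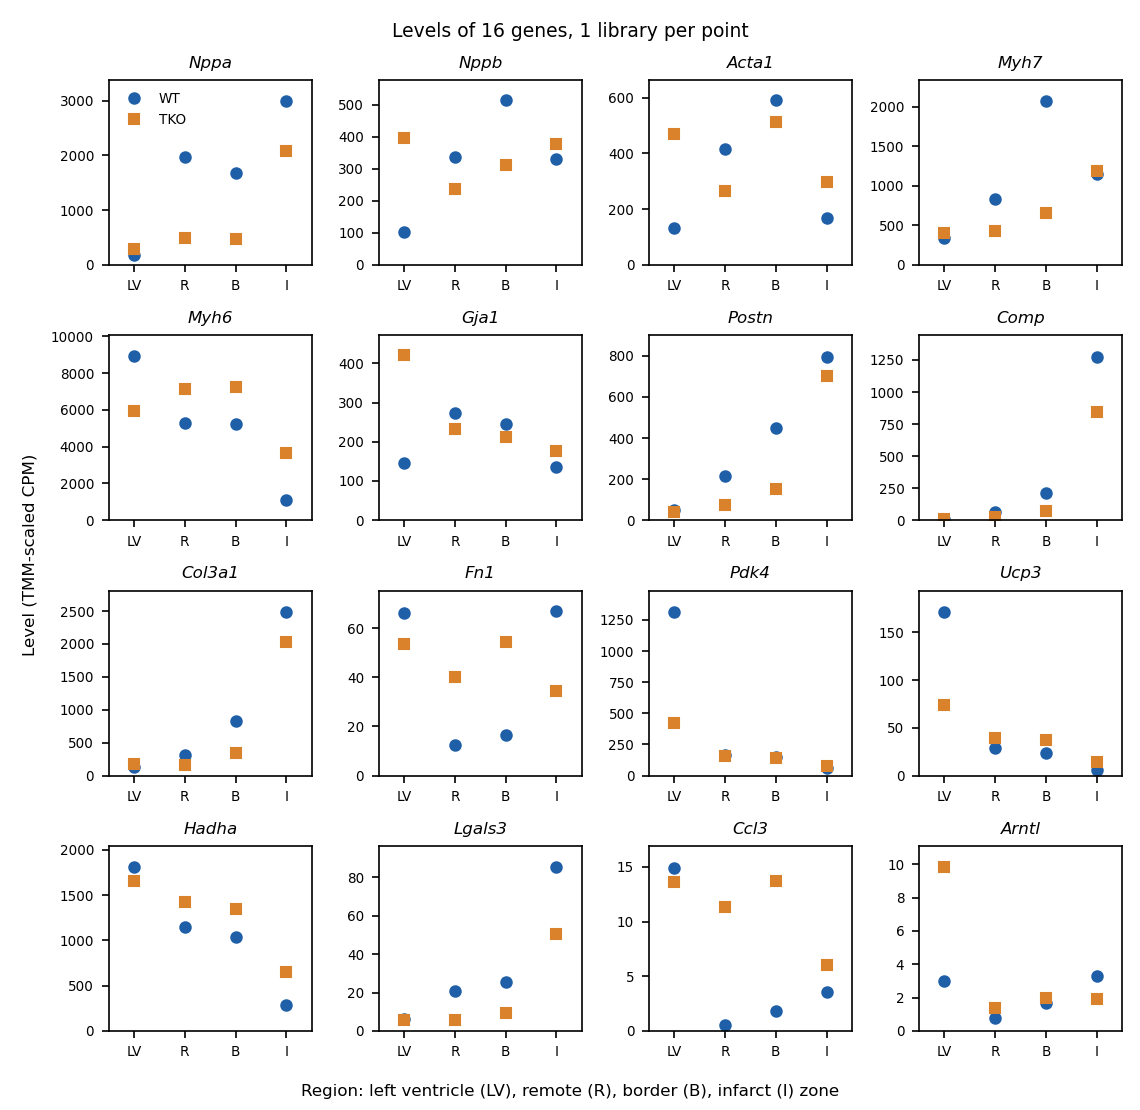
TMM-scaled CPM (y axis, linear, from 0) of 16 genes in the left ventricle (LV) and the remote (R), border (B), and infarct (I) zones (x axis), 1 library per point, WT as circles and TKO as squares. *Nppb*, *Acta1*, and *Gja1* are lower in the WT left ventricle than in the TKO left ventricle, and *Pdk4* and *Ucp3* are highest in the WT left ventricle.

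Genes of the contractile apparatus were slightly lower in the WT remote zone. *Myh6*, the α-myosin heavy chain of adult mouse ventricle (chromosome 14, 54941921 to 54966927), had 244473 counts in the left ventricle, 160486 in the remote zone, and 161279 in the border zone, a remote zone ratio of 0.591 (0.587 to 0.595). In TKO it had 153941 and 215284 counts, a ratio of 1.20. The direction was therefore opposite between the pairs, the WT left ventricle was the highest of the 8 libraries, and against the TKO left ventricle the ratio was 0.887. Of 27 core sarcomere genes, 1 (*Myh6*) was at least 1.5-fold lower and none was higher, with a median ratio of 0.888 in WT and 0.923 in TKO. *Ttn* (titin), *Actn2* (α-actinin-2), and *Cmya5* had ratios of 0.706, 0.695, and 0.695 in WT. In TKO their ratios were 1.12, 0.858, and 1.13, so *Ttn* and *Cmya5* went the other way. Against the TKO left ventricle the WT remote zone ratios were 0.888, 0.753, and 0.891.

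Calcium handling genes had a median near 1, with members on both sides: 6 intervals lay above 1, that of the atrial member *Sln* included, and 7 below. *Atp2a2*, the sarcoplasmic reticulum calcium pump, had 343793 and 291093 counts (ratio 0.763, 0.759 to 0.766). *Ryr2*, the ryanodine receptor that releases calcium, had 22804 and 18263, a ratio of 0.721. The TKO ratios of *Atp2a2* and *Ryr2* were 1.04 and 1.25, above 1. Against the TKO left ventricle the WT remote zone ratios were 0.863 and 0.951. *Pln* (phospholamban) was even, with a ratio of 1.0 (0.995 to 1.01). *Hrc*, a calcium-binding protein of the same store, had the lowest ratio of the list, 0.565 in WT and 0.757 in TKO. Over the 20 genes measured the median was 0.993, with 2 at least 1.5-fold higher (*Sln* and *Fkbp1b*, the latter from 11 and 37 counts) and 1 lower.

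Of 32 ion channel genes, 6 were at least 1.5-fold higher and 3 lower, with a median ratio of 1.17. The higher ones included *Kcne1*, a potassium channel subunit, with 65 and 254 counts, a ratio of 3.52 in WT and 1.77 in TKO. *Scn4b*, a sodium channel subunit, was lower in both pairs, at 0.602 in WT and 0.499 in TKO. Of the transient outward current genes, *Kcnd2* had 537 and 582 counts (0.976, 0.867 to 1.10), and *Kcnip2* had 5208 and 4235 (0.732, 0.703 to 0.763). *Kcna5* had ratios of 0.664 in WT and 1.96 in TKO, in opposite directions. *Adrb1*, the main cardiac β-adrenergic receptor, had 470 and 695 counts in WT, a ratio of 1.33, and 0.746 in TKO, and *Adra1a* was 0.575 in WT and 1.52 in TKO. Against the TKO left ventricle both changed side, to 0.846 and 1.11.

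Genes of activated fibroblasts were higher in the remote zone as a group. Of 41 measured, 25 were at least 1.5-fold higher and 1 was lower, and 19 were at least 2-fold higher. Their median ratio was 1.80 in WT and 1.14 in the TKO pair, where 13 were higher and 2 lower, and 12 were higher in both. With the TKO left ventricle as the reference, the WT median was 1.65. The fibroblast markers themselves (12 genes, resting cells included) had a median ratio of 1.58, and whether the group followed the number of fibroblasts was not tested.

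*Postn* (periostin, made by activated fibroblasts; chromosome 3, 54361109 to 54391037) had 1321 counts in WT left ventricle, 6592 in the remote zone, 13860 at the border, and 33643 in the infarct. The remote zone ratio was 4.49 (4.24 to 4.77) in WT and 1.85 (1.72 to 2.0) in TKO. The order left ventricle, remote zone, border zone, infarct zone was also seen for *Comp*, a cartilage matrix protein of late fibroblasts, with 323, 1937, 6527, and 53811 counts and a remote zone ratio of 5.40 in WT and 2.15 in TKO. *Cilp*, a secreted protein of fibroblasts in the loaded heart (chromosome 9, 65265180 to 65280605), had 379, 2112, 6034, and 15153 counts, with ratios of 5.02 (4.50 to 5.61) in WT and 3.19 in TKO. In each of these genes the remote zone lay between the left ventricle and the border zone in both genotypes.

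The highest ratios of the list were those of *Cilp2* (20 and 198 counts, 8.92, 5.62 to 14.9), *Sfrp2*, a secreted Wnt antagonist (111 and 821, 6.66), and *Ccn5* (196 and 1431, 6.58). In TKO these genes had ratios of 3.65, 2.24, and 2.58. *Tnc* (tenascin-C), a marker of acute injury, had 121 and 149 counts, a ratio of 1.11 whose interval (0.867 to 1.42) holds 1, and the TKO ratio was 0.868. *Fn1* (fibronectin) was the exception in the list. It had 1819 counts in WT left ventricle, 381 in the remote zone, 504 at the border, and 2836 in the infarct, a remote zone ratio of 0.189 (0.168 to 0.211). In TKO it had 1388, 1212, 1616, and 1227 counts, so that the WT remote and border zones stood below the other 6 libraries.

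The fibrillar collagen genes named here were higher by less than *Postn*, *Comp*, and *Cilp* were. *Col3a1* had 3528 counts in WT left ventricle and 9506 in the remote zone, a ratio of 2.43 (2.33 to 2.52), and *Col1a2* and *Col1a1* had ratios of 1.80 and 1.35. The TKO ratios of these 3 genes were 0.914, 1.12, and 0.989, close to even. The network-forming collagens *Col8a1* (580 and 1920 counts, 2.98) and *Col8a2* (29 and 138, 4.29) and the fibril-associated *Col12a1* (92 and 317, 3.10) were higher, and *Col12a1* was also higher in TKO (3.55). Of 35 collagen genes measured of 43 listed, 12 were at least 1.5-fold higher and none lower in the WT remote zone, with a median of 1.23. The TKO pair had 9 higher and 5 lower, with a median of 1.10.

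Genes for proteins that organize collagen were higher too. Of 12 small leucine-rich proteoglycan genes, 8 were at least 1.5-fold higher and none lower (median 1.68), led by *Fmod* (fibromodulin; 202 and 914 counts, ratio 4.08 in WT and 3.18 in TKO), with *Aspn* at 2.47 and *Dcn* (decorin) at 1.54. The 22 matricellular genes had 10 higher and none lower, and *Thbs4* (thrombospondin-4) had 205 and 1163 counts, a ratio of 5.11 (4.40 to 5.96) in WT and 1.36 in TKO. Of 29 collagen-modifying enzyme genes, 9 were higher and 1 lower. *Loxl2*, a crosslinking enzyme, had a ratio of 2.12 and *Lox* of 1.26, an order that turned against the TKO left ventricle (1.65 and 3.62). Among 17 metalloproteinase and inhibitor genes, 8 were higher and 1 lower, with *Mmp12*, the macrophage elastase, at 5.72 (4.55 to 7.26), *Timp1* at 4.37, and *Mmp2* at 1.71. The corresponding TKO ratios were 0.911, 1.59, and 1.09.

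Markers of valve, tendon, and cartilage were also higher, with 10 of 11 at least 1.5-fold higher and a median ratio of 4.07 in WT and 2.15 in TKO. *Comp*, *Cilp*, *Fmod*, and *Thbs4* belong to that list as well as to the lists above. *Tnmd* (tenomodulin), a defining tendon marker, had 1 count in the left ventricle and 27 in the remote zone, a ratio of 24.3 (4.01 to 996), against 116 and 182 in the border and infarct zones. The contribution of such tissue was not tested.

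Ligands of the TGF-β pathway, which drives fibroblast activation, had ratios above 1 in WT. *Tgfb1*, *Tgfb2*, and *Tgfb3* had ratios of 1.26 (1.15 to 1.39), 1.68 (1.41 to 2.0), and 1.62 (1.41 to 1.85), and the TKO ratios were 0.889, 0.846, and 1.12. Against the TKO left ventricle *Tgfb1* was 1.12 and *Tgfb3* 1.61, whereas the interval of *Tgfb2* held 1 (0.928 to 1.26). Of 35 pathway genes, 9 were at least 1.5-fold higher and 2 lower, with a median of 1.25. The 2 with the highest ratios were *Bmp10*, already given among atrial markers, and *Gdf6*, a growth factor of joints and tendons (20 and 102 counts, 4.59). *Grem1* had 17 and 4 counts (ratio 0.212, 0.0519 to 0.650), and its interval against the TKO left ventricle held 1 (0.104 to 1.91).

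**Figure D3:**
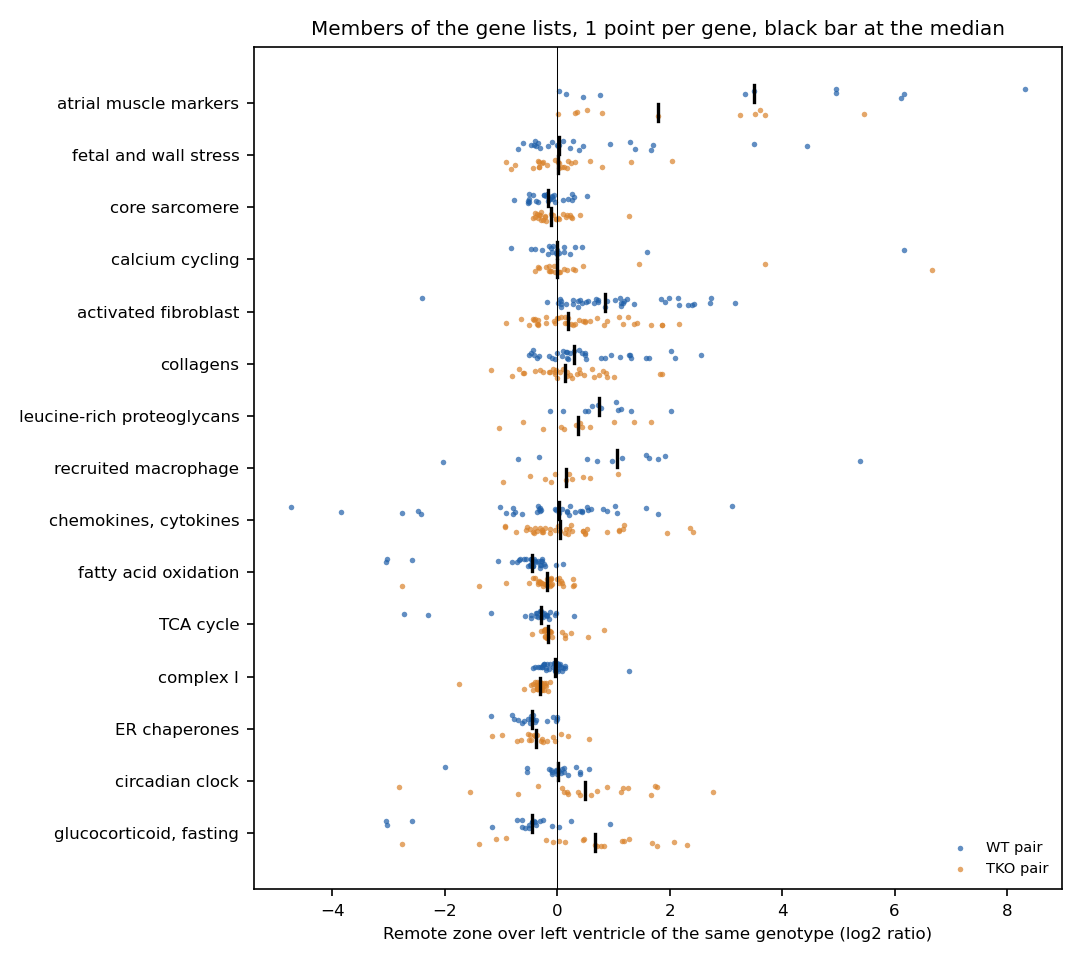
Remote zone over left ventricle ratio (x axis, log2) of each member of the 15 gene lists named on the y axis, WT in blue and TKO in orange, with a black bar at the median of each list. Among these 15 lists, the WT medians are highest for atrial muscle markers (11.4), recruited macrophage markers (2.10), and activated fibroblast genes (1.80). They are lowest for endoplasmic reticulum chaperones (0.732), glucocorticoid and fasting response genes (0.736), and fatty acid oxidation (0.737).

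Genes of fatty acid use were lower in the WT remote zone, as were the cardiomyocyte markers (7 of 8 below 1, median 0.757, beside 0.737 for the fatty acid oxidation list), and the part of cardiomyocyte content in the result was not tested. The largest differences were in genes that the nuclear receptors of the PPAR family switch on when fatty acids are abundant. *Pdk4*, the kinase that holds back glucose oxidation (ENSMUSG00000019577, chromosome 6, 5483351 to 5496309), had 35967 counts in WT left ventricle, 4921 in the remote zone, 4701 at the border, and 2568 in the infarct. Its remote zone ratio was 0.123 (0.120 to 0.127). The TKO counts were 10880, 4844, 4172, and 2608, with a ratio of 0.383. The 2 remote zones thus had nearly equal *Pdk4*, and the left ventricles differed.

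*Ucp3* (mitochondrial uncoupling protein 3) had 4691 counts in WT left ventricle, 870 in the remote zone, 730 at the border, and 263 in the infarct, a remote zone ratio of 0.167 (0.155 to 0.180). In TKO it had 1905, 1173, 1100, and 517, a ratio of 0.530. *Angptl4*, a lipoprotein lipase inhibitor, had 784 and 106 counts in WT (0.122, 0.0985 to 0.149) and 464 and 80 in TKO (0.148). Against the TKO left ventricle the WT ratios of *Pdk4*, *Ucp3*, and *Angptl4* were 0.385, 0.389, and 0.194. These 3 genes were lower in the remote zone in both genotypes and against either left ventricle. The *Ucp3* promoter at chr7:100472741-100473040 (+ strand, GRCm38.p6) is shown for its 2 copies of AGGTCA, the half-site of nuclear receptors (searched on both strands, TGACCT on the other), in capitals.
Ucp3: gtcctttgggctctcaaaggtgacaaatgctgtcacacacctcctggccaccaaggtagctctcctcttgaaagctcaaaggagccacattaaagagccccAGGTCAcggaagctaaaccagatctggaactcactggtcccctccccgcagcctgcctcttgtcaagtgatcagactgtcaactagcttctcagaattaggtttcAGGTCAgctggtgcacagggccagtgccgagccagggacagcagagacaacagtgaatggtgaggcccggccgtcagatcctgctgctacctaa

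The half-site was in 9 of the 32 promoters of the fatty acid oxidation list (28.1%) and in 16.3% of all promoters.

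Below these genes, the list was lower by a smaller amount. In the fatty acid oxidation list (35 genes measured), 9 were lower by at least 1.5-fold and none was higher, and the median ratio was 0.737 in WT and 0.888 in TKO, where 3 were lower. *Cpt1b*, the entry enzyme of long-chain fatty acids into mitochondria, had 17251 and 13964 counts, a ratio of 0.729 (0.713 to 0.745) in WT and 0.832 in TKO. *Hadha*, an enzyme of β-oxidation named after its values were seen, had 49742 and 34879 counts (0.631, 0.623 to 0.640) in WT and 0.860 in TKO. *Lipe* (hormone-sensitive lipase) had a ratio of 0.484, or 0.773 against the TKO left ventricle. Regulators of the pathway were near even in WT: *Ppara* had 726 and 743 counts (0.922, 0.831 to 1.02) and *Ppargc1a* had 2798 and 2908 (0.936). *Ppara* was 1.77-fold higher in the TKO remote zone, and 1.43 in the WT remote zone against the TKO left ventricle.

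Other fuel pathways had medians nearer to 1 than the fatty acid oxidation list in the WT pair. The 32 glycolysis and glucose uptake genes had a median ratio of 0.850, with 1 at least 1.5-fold higher and 5 lower; *Slc2a1* and *Slc2a4*, the glucose transporters, had ratios of 1.01 and 0.856, and *Hk2* (hexokinase 2) 0.812. *Pygm*, the muscle glycogen phosphorylase, was the lowest of them at 0.594. The 24 TCA cycle genes had a median of 0.816, with 3 lower. These were *Idh3a* (1815 and 305 counts, ratio 0.151), *Pcx* (200 and 45, 0.203), and *Mdh1* (791 and 391, 0.445), and in TKO their ratios were 1.18, 0.860, and 1.78. The *Pcx* counts were whole multiples of 45 in 6 of the 8 libraries, a pattern of the estimated counts themselves, and against the TKO left ventricle the ratio was 0.851 (0.550 to 1.32). *Ogdh* had 55690 and 41410 counts, a ratio of 0.670. Branched-chain amino acid genes had a median of 0.791 over 21 genes, with 1 lower. Against the TKO left ventricle the glycolysis, TCA cycle, and branched-chain medians were 0.812, 0.807, and 0.822, beside 0.776 for fatty acid oxidation. In the TKO pair they were 0.907, 0.892, and 0.942, beside 0.888. The 4 lists thus lay closer together in those comparisons than in the WT pair.

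Subunits of the respiratory chain had medians near 1 in the WT pair. The median ratio was 0.975 for 36 complex I genes, 0.981 for 29 genes of complexes II to IV, 0.950 for 17 ATP synthase genes, and 1.03 for the 13 mitochondrial DNA–encoded genes, and it was 1.0 for 76 mitochondrial ribosomal protein genes. In the TKO pair the first 3 medians were 0.807, 0.855, and 0.840. Thus the nuclear respiratory genes, unlike the fatty acid genes, were nearer to 1 in the WT pair than in the TKO pair. With the TKO left ventricle as the reference, the WT remote zone medians were 0.820 for complex I, 0.880 for complexes II to IV, and 0.825 for ATP synthase. With that reference the mitochondrial ribosomal protein genes had 0.868 and the fatty acid oxidation list 0.776. The near-even medians of these nuclear genes therefore rested on the WT left ventricle library.

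Recruited macrophage markers were higher in the WT remote zone. Of 12, 8 were at least 1.5-fold higher and 2 lower, with a median of 2.10 in WT and 1.12 in TKO. *Lgals3* (galectin-3; chromosome 14, 47367751 to 47386160) had 164 counts in WT left ventricle, 629 in the remote zone, 778 at the border, and 3603 in the infarct, a remote zone ratio of 3.45 (2.90 to 4.13), against 0.973 (0.778 to 1.22) in TKO. *Gpnmb*, a lysosomal glycoprotein of lipid-laden macrophages, had 303 and 1047 counts (3.11), *Spp1* (osteopontin) 449 and 1114 (2.23), and *Ccr2*, the receptor that brings monocytes into tissue, 67 and 222 (2.98, 2.26 to 3.98). The TKO ratios of these 3 genes were 1.38, 1.21, and 1.15. *Chil3*, a chitinase-like protein of alveolar and alternatively activated macrophages, had 14 and 651 counts, a ratio of 41.9, and 10 and 6 counts in TKO.

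Resident macrophage markers were within 1.5-fold in WT, with 9 of 12 above 1, each of the 9 with an interval above 1, and a median of 1.21. *Lyve1* and *Cd163* were among the 3 below 1, at 0.851 and 0.864. In TKO, 5 of 12 were at least 1.5-fold higher, with a median of 1.35, and *Lyve1* and *Cd163* were at 2.05 and 2.21. Against the TKO left ventricle the WT median was 1.52, and both genes changed side, to 2.10 and 2.02. *Ptprc*, which encodes the leukocyte antigen CD45, had 283 and 451 counts (1.44, 1.23 to 1.67; 2.26 against the TKO left ventricle), and *Cd68* had 218 and 412 (1.70). The lysosomal protease *Ctsk* had 117 and 558 counts, a ratio of 4.30 in WT and 1.0 in TKO. *S100a8* and *S100a9*, subunits of calprotectin in neutrophils, had 14 and 96 and 21 and 128 counts, with ratios of 6.18 (3.51 to 11.7) and 5.49 (3.44 to 9.17). *Pecam1*, an endothelial marker, had 4398 and 4357 counts, a ratio of 0.892.

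Chemokines split in both directions. Of 39 chemokine and cytokine genes, 8 were at least 1.5-fold higher and 11 lower, with a median of 1.02. *Ccl3* (chromosome 11, 83647844 to 83649355) had 409 counts in WT left ventricle, 17 in the remote zone, 57 at the border, and 152 in the infarct, a remote zone ratio of 0.0374 (0.0216 to 0.0607). The TKO counts were 352, 341, 406, and 216, so that the WT remote and border zones stood below the other libraries. *Ccl4* (130 and 10 counts, 0.0693), *Cxcl2* (404 and 66, 0.147), and *Tnf*, named after its values were seen (111 and 23, 0.187), showed the same pattern, with TKO ratios of 0.784, 0.843, and 0.742. On the higher side were *Ccl8* (30 and 115, 3.45), also higher in TKO (5.33), *Il33*, an alarmin of stromal cells (159 and 360, 2.04 in WT and 2.27 in TKO), and *Cxcl5* (8 and 77, 8.67), for which the TKO left ventricle had 262 counts and the direction turned with that reference.

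Clock genes follow the time of day, and the hour of tissue collection was not given in the sources used here. In WT the 20 genes had a median ratio of 1.01, with none at least 1.5-fold higher and 1, *Arntl*, lower. *Per2* had 846 and 1002 counts (1.07, 0.972 to 1.17), and *Dbp* had 3157 and 4621 (1.32). In TKO, 10 were higher and 3 lower, with *Per2* at 6.87 (164 and 1309 counts). *Arntl*, which encodes the activator BMAL1, had 82 and 23 counts in WT (0.253, 0.152 to 0.405) and 254 and 42 in TKO (0.142). The TKO left ventricle was the lowest of the 8 libraries in *Per2* and *Dbp*, and it is the alternative reference used above.

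Of 28 immediate early and heat shock genes, 4 were higher and 7 lower by at least 1.5-fold in WT, with a median of 1.09, against 11 higher and 1 lower in TKO. *Hsph1*, a heat shock cochaperone, had 661 and 122 counts in WT (0.166, 0.136 to 0.202) and 238 and 84 in TKO (0.304). *Hspa1a*, the inducible 70-kDa chaperone, had 266 and 141 counts, a ratio of 0.477 in WT and 1.32 in TKO, and its interval against the TKO left ventricle held 1 (0.674 to 1.09). *Fos* was higher in both pairs (52 and 119 counts, 2.06 in WT, and 2.21 in TKO), and *Egr1* had a ratio of 1.0 (0.864 to 1.16). Of 21 glucocorticoid and fasting response genes, 7 were lower by at least 1.5-fold and 1 was higher in WT, against 4 lower and 11 higher in TKO, and the medians were 0.736 and 1.59. *Pdk4*, *Ucp3*, and *Angptl4* are members of this list. *Fkbp5*, a glucocorticoid target named after its values were seen, had 1341 and 903 counts in WT (0.606) and 232 and 1134 in TKO (4.20). *Txnip*, a glucose-responsive inhibitor of thioredoxin, was lower in both, with 23502 and 11720 counts in WT (0.449) and a ratio of 0.473 in TKO.

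Gene groups that are not of heart muscle were among the largest differences. The fat cell genes *Cfd* (adipsin; 1144 and 61 counts, ratio 0.0480, 0.0365 to 0.0622), *Adipoq* (adiponectin; 370 and 28, 0.0682), and *Cidec*, a lipid droplet protein (388 and 36, 0.0836), were lower in the WT remote zone. So were *Pck1*, the gluconeogenic and glyceroneogenic enzyme also found in fat (847 and 21 counts, ratio 0.0223, 0.0137 to 0.0344), and *Car3*, a carbonic anhydrase of fat and muscle (1702 and 142, 0.0751). In the TKO left ventricle the counts of these 5 genes were 17, 6, 6, 5, and 31, and against that library each was higher in the WT remote zone, with ratios of 3.05 to 5.11. The WT left ventricle was the highest of the 8 libraries in each of these 5 genes. The markers *Fabp4*, *Pparg*, and *Plin4*, which other cells of the heart also express, had ratios of 0.926, 0.839, and 1.09, and of 1.28, 1.36, and 1.26 against the TKO left ventricle. Of 8 adipocyte markers, 4 were at least 1.5-fold lower and none higher, with a median of 0.661. The list summed to 851 CPM in the WT left ventricle and 722 CPM in the remote zone, of which *Fabp4* made up 668 and 619 CPM. The part of fat tissue in the lower *Pdk4*, *Angptl4*, and *Lipe* was not tested.

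Genes of B and plasma cells were also higher in the WT left ventricle than in the WT remote zone and the TKO left ventricle. Unlike the fat genes, their summed level was highest in the infarct zones (865 CPM in WT and 567 CPM in TKO, against 197 CPM in WT left ventricle). *Ighm*, the heavy chain of immunoglobulin M, had 2706 counts in WT left ventricle, 518 in the remote zone, 510 at the border, and 8657 in the infarct, a remote zone ratio of 0.172. In TKO it had 210, 308, 429, and 2887. Of 8 markers, 7 were at least 1.5-fold lower in WT (median 0.412) and none in TKO, where 4 were higher, and the WT remote zone over TKO left ventricle median was 2.18.

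Lung genes were present in the WT remote zone. *Sftpc*, the surfactant protein C gene of the alveolus, had 31 counts in WT left ventricle, 556 in the remote zone, 129 at the border, and 4871 in the infarct, a remote zone ratio of 16.2 (11.2 to 24.0). *Scgb1a1*, a secreted protein of airway club cells, had 4, 359, 22, and 108 counts, a remote zone ratio of 80.8. In the TKO libraries *Sftpc* had 17, 35, 135, and 10576 counts. A list of 12 lung epithelial genes, added after these values were seen, summed to 3.72 CPM in the WT left ventricle and 42.9 CPM in the remote zone. The lung list was 205 CPM in the WT infarct zone and 486 CPM in the TKO infarct zone. Whether the level of *Chil3* and other macrophage genes in the WT remote zone moved with lung tissue was not tested.

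**Figure D4:**
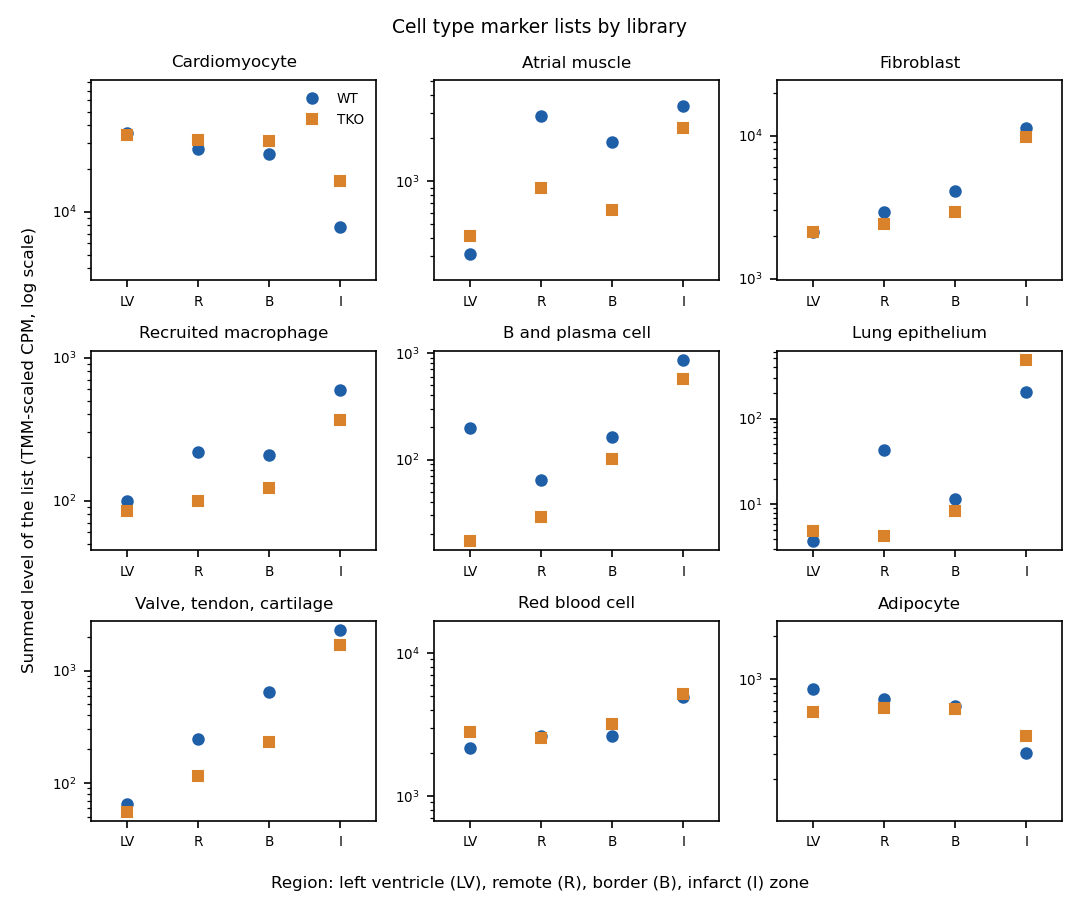
Summed TMM-scaled CPM (y axis, log scale) of 9 marker lists in the left ventricle (LV) and the remote (R), border (B), and infarct (I) zones (x axis), 1 library per point, WT as circles and TKO as squares. The WT remote zone is above the WT left ventricle in atrial muscle (2844 against 308 CPM) and lung epithelium (42.9 against 3.72 CPM) and below it in B and plasma cells (64.4 against 197 CPM).

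Part of the largest ratios came from counts at or near 0. Of the 444 genes at least 2-fold higher, 62 had 3 counts or fewer in the WT left ventricle, 27 of them 0, and of the 272 lower genes, 23 had 3 or fewer in the remote zone, 11 of them 0. *Pnpla6* (0 and 142 counts), *Nrbp2* (0 and 133), and *Itsn2* (0 and 121) were at least 42.6-fold, 39.9-fold, and 36.3-fold higher, taking the left ventricle at a floor of 3 counts per library. *Nrbp2* had 97 counts in the TKO left ventricle and 0 in the TKO remote zone, the opposite order. Against the TKO left ventricle, *Nrbp2* and *Itsn2* had intervals that held 1, with ratios of 1.17 and 1.23, and *Pnpla6* had a ratio of 2.16. *Birc2* had 1 and 231 counts in WT and 0 and 99 in TKO, so that both left ventricles were at the floor. On the lower side, *Cyb561a3* (63 and 0 counts), *Pan2* (53 and 0), and *Carmil3* (50 and 0) had 0 in the WT remote zone and counts in each TKO library. Over all genes tested, 128 had 0 counts in 1 library and at least 20 in another. The deposited counts were estimated from transcripts, and how reads were shared between overlapping or similar transcripts was not tested.

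The same contrast in TKO mice shares no library with the WT pair. There, 404 genes were at least 2-fold higher (3.11%) and 199 lower (1.53%). Of the 444 genes higher in WT, 92 were also higher in TKO (20.7% of the WT genes and 22.8% of the TKO genes), and 28 were at least 2-fold lower there. Of the 272 lower genes, 27 were also lower (9.93% of the WT genes and 13.6% of the TKO genes), and 36 were at least 2-fold higher. Across 12654 genes with at least 10 counts in each of the 4 libraries, the log2 ratios of the pairs had a Pearson r of 0.169 and a Spearman ρ of 0.134. This is a description across genes, which are not independent replicates.

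**Figure D5:**
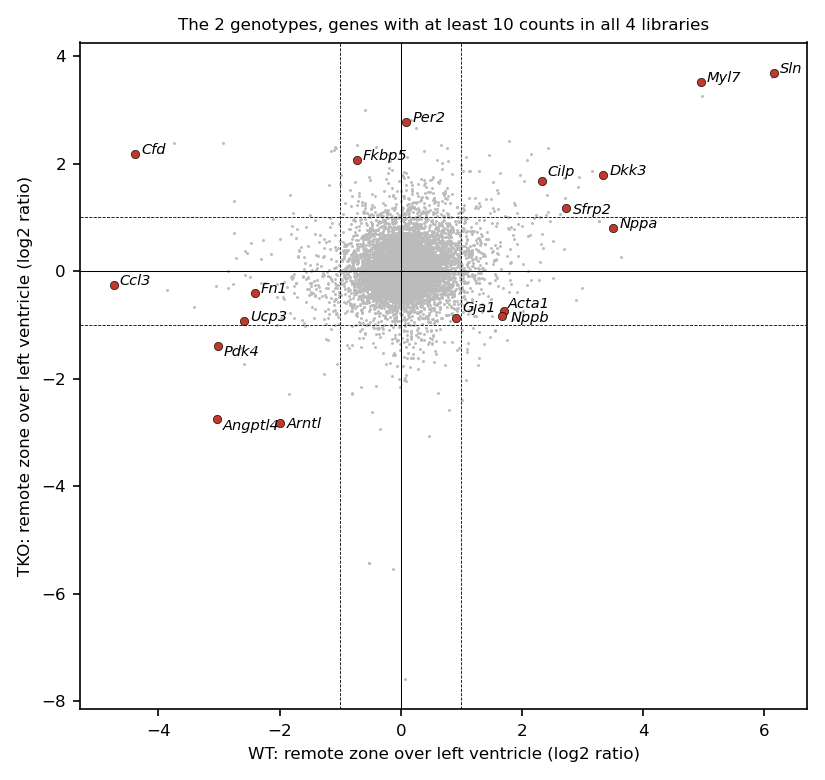
Each point is 1 of 12654 genes, plotted by its remote zone over left ventricle ratio (log2) in WT (x axis) and TKO (y axis), with dashed lines at 2-fold. *Sln*, *Myl7*, *Cilp*, and *Sfrp2* are higher in both genotypes, *Pdk4*, *Angptl4*, and *Arntl* are lower in both, and *Nppb*, *Acta1*, and *Gja1* are higher in WT and lower in TKO.

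To see which differences held over both genotypes, the 8 libraries were fitted with genotype and region as terms, with the 2 genotypes standing in for replicates. With the quasi-likelihood test of edgeR (Benjamini-Hochberg adjusted), 0 of 12999 genes passed an adjusted p of 0.05 (0% called), and 1378 had an unadjusted p under 0.05 (10.6%). The lowest adjusted p was 0.0577. For *Bmp10* the fitted log2 difference was 7.19 with an adjusted p of 0.103, for *Angptl4* it was -2.90 with 0.0710, for *Pdk4* -2.33 with 0.248, and for *Cilp* 2.03 with 0.223 (edgeR). For *Nppa* it was 2.03 with an adjusted p of 0.391 (edgeR). With DESeq2's Wald test, 127 genes were higher and 35 lower. *Bmp10*, *Cilp*, and *Nppa* were higher in the remote zone in 2 of 2 genotypes, and *Angptl4* and *Pdk4* were lower in 2 of 2.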

How the data were processed

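Bulk RNA was sequenced from 4 heart regions of WT and TKO mice, 1 library each. The authors trimmed reads with Trim Galore (0.6.5), quantified transcripts with kallisto (0.46) and tximport against mm10, and used edgeR (3.34.1), per the submitters' processing notes and the methods of the study. The deposited gene values are estimated counts, given as whole numbers, and totals ranged from 27429240 to 33799249, so precision is limited by counting error at low counts and by the lack of replicates throughout.

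From these counts, CPM with TMM scaling over the 8 libraries were computed (R 4.3.3, edgeR 4.0.16; Python 3.11.15, pandas 2.3.3, numpy 2.4.6, scipy 1.17.1, matplotlib 3.10.9), and genes averaging at least 1 CPM were kept (12999). Ratios were remote zone over left ventricle CPM. A prior count of 2 was added for calls at 1.5-fold and 2-fold, and a library at 0 was set to 3 counts for a bound. The fit over both genotypes used edgeR, with DESeq2 (1.42.0) as an alternative, and was tested on simulated data. Named genes were the 15 highest and 15 lowest by the bound of the interval nearer to 1, the 4 highest and 4 lowest of each list, and a set of anchor genes. *Dkk3*, *Fkbp5*, *Hadha*, and *Tnf* fell outside that rule. The lists and the comparison were chosen with earlier results of these data known, and the lung list after the values were seen. Gene positions are those of GRCm38. Groups were taken from the sample labels, and the alternatives were other scalings, filters, prior counts, and the TKO left ventricle as the reference. A result for 1 gene of the ion channel list is not reported here.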

Additional observations from a re-analysis of the deposited data

Results flagged for a closer look

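The following genes were past 1.5-fold in opposite directions in the WT and TKO pairs of remote zone and left ventricle. With 1 library a group the difference was not tested for any of them. Higher in WT and lower in TKO were *Acta1* (ratio 3.17 in WT and 0.563 in TKO), *Nppb* (3.27 and 0.596), *Gja1* (1.89 and 0.550), and *Chil3* (41.9 and 0.516, the latter from 10 and 6 counts). *Nrbp2* had a bound of 39.9 in WT, where the left ventricle had 0 counts, and of 0.0266 in TKO, where the remote zone had 0.

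Lower in WT and higher in TKO were the fat genes *Cfd* (0.0480 and 4.50), *Adipoq* (0.0682 and 2.44), *Cidec* (0.0836 and 7.02), *Car3* (0.0751 and 5.24), and *Pck1* (0.0223 and 3.10). The TKO values of *Adipoq* and *Pck1* rested on fewer than 20 counts in each library. *Pan2* had 0 counts in the WT remote zone, a bound of 0.0510, and a TKO ratio of 1.76. The others were *Adra1a* (0.575 and 1.52), *Kcna5* (0.664 and 1.96), *Fkbp5* (0.606 and 4.20), and *Mdh1* (0.445 and 1.78).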

How the results depend on the processing

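No paired analysis was possible because the labels gave no replicate numbers; the fit over both genotypes had genotype as a term. With no low-count filter, 1008 genes were at least 2-fold higher, 1177 lower, 2103 at least 1.5-fold higher, and 2097 lower. With a mean of at least 5 CPM the counts were 188, 68, 589, and 285. With the TKO left ventricle as the reference, 700 genes were at least 2-fold higher. Over both genotypes, DESeq2 called 162 genes, total-count CPM 18, the 4 remote zone and left ventricle libraries alone 7, a mean of at least 5 CPM 1, and no filter 3. The cause of these differences was not tested.

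Total-count CPM gave list medians of 11.8 for atrial markers, 0.923 for sarcomere genes, and 0.765 for fatty acid oxidation, and the TKO left ventricle as the reference gave 7.85 for atrial markers and 0.776 for fatty acid oxidation. That reference reversed the medians of B and plasma cell markers (2.18) and adipocyte markers (1.32), and, among ratios past 1.5-fold in WT, those of *Acta1* (0.881), *Nppb* (0.850), *Gja1* (0.648), *Cxcl5* (0.250), *Adipoq* (3.97), *Car3* (3.90), *Cfd* (3.05), *Cidec* (5.11), *Pck1* (3.57), *Ighm* (2.10), *Adra1a* (1.11), *Kcna5* (1.49), *Fkbp5* (3.31), and *Herpud1* (1.12). Over the 131 named genes other than *Tigar*, that reference moved 54 ratios by over 1.5 times and turned 23 to the other side of 1, 18 of them with intervals that left out 1 for either reference; those nearer to 1 included *Adrb1* (0.846), *Lyve1* (2.10), *Cd163* (2.02), *Fabp4* (1.28), and *Pparg* (1.36). No scaling of the WT pair reversed a named ratio past 1.5-fold. The median of the lung list, an alternative chosen after seeing the data, was 9.31 and 7.48 with that reference.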

Other observations

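Genes of endoplasmic reticulum protein folding were lower in the remote zone of both genotypes. Of 20 chaperone genes, 6 were at least 1.5-fold lower and none higher in WT, with a median ratio of 0.732, and 4 were lower and none higher in TKO, with a median of 0.772. *Hspa5*, the main chaperone of the endoplasmic reticulum, had 18917 counts in the WT left ventricle and 13548 in the remote zone, a ratio of 0.645 in WT and 0.612 in TKO, and *Hyou1* had ratios of 0.576 and 0.642. *Herpud1*, a member of the degradation pathway, had 10396 and 5106 counts in WT (0.442) and a ratio of 1.47 in TKO.

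Of 39 cell cycle genes, 15 were at least 1.5-fold higher and 3 lower in the WT remote zone, with a median of 1.23, against 4 higher and 2 lower in TKO. *Ccnb1* (cyclin B1) had 24 and 92 counts (3.45), *Cdk1* 38 and 94 (2.23), and *Ube2c* 41 and 103 (2.26). *Cdkn2a*, which encodes cell cycle inhibitors, had 103 counts in the WT left ventricle and 7 in the remote zone (0.0612, 0.0240 to 0.131). The TKO left ventricle had 9 counts, and against it the interval held 1 (0.662, 0.210 to 2.0), so the *Cdkn2a* difference depended on which left ventricle was the reference. *Cdkn2a* had 19 and 79 counts in the WT border and infarct zones. In the TKO remote, border, and infarct zones it had 9, 98, and 75. Among 12 epicardial and mesothelial markers, 6 were higher and 1 lower, with *Krt8* (keratin 8) at 16 and 220 counts (12.4, or 4.16 against the TKO left ventricle). Their summed level was 717 CPM in the WT left ventricle and 663 CPM in the remote zone. Whether *Krt8* moved with the lung genes above was not tested. Complement genes (21 measured) had 6 higher and 1 lower, and interferon-stimulated genes (38 measured) 5 higher and none lower.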
